A study of Mus musculus with 9 samples.

Results

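Wild-type mouse hearts collected 1 day after a myocardial infarction were compared with wild-type hearts of sham-operated mice by bulk RNA sequencing of total heart RNA. The comparison took in 6 of the 9 libraries of the deposited table, 3 labelled as sham and 3 as acute infarction with a time point of 1 day. Its genes were the 13514 of 25468 whose mean over all 9 libraries was 1 FPKM or more, FPKM being a fragment count scaled to transcript length and library size. The remaining 3 libraries, wild-type hearts 7 days after infarction, lent their spread to the statistical fit, and their levels appear here as values with no test. The labels give neither strain, sex and age, nor how the infarct was made, nor which part of the heart was taken, nor how long after surgery the sham hearts were collected. Nor is it stated whether each library is a heart of its own, and the p-values then speak only for the scatter among these libraries, which could be technical. The Hdc-/- hearts that the series also mentions were not analysed here.

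An infarct kills heart muscle that has lost its blood supply. In the following day neutrophils and then monocytes enter the tissue, resident fibroblasts and vessel cells become activated, and surviving muscle cells alter their contractile, electrical and metabolic genes. RNA of bulk heart tissue holds all of these cells together. A lower level of a transcript can therefore mean fewer cells of a type or less RNA per cell, and these cannot be told apart in any result below.

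Heart muscle transcripts were abundant in all 6 libraries. The ventricular myosin heavy chain gene Myh6 was at 6959, 7111 and 6993 FPKM in sham and 5714, 4206 and 3894 FPKM at day 1. The troponin gene Tnnt2 was at 5669, 5864 and 6046 FPKM in sham and 4429.7, 3621 and 4527 FPKM at day 1. Summed FPKM was 768943 to 792632 in sham and 597380 to 729940 at day 1, and mitochondrially encoded genes held 38.5 to 39.6% of it in sham and 34.2 to 39.8% at day 1. Rescaling every library to a common total (TPM) moved the median log2 difference of all genes from -0.01 to 0.23. The number of reads behind the values is unknown.

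Some libraries carried transcripts of tissue next to the ventricle. Scgb1a1, made by airway club cells, was at 172, 0 and 0 FPKM in sham and 14.3, 780.2 and 0 FPKM at day 1, and the lung surfactant gene Sftpc at 0.0619, 0 and 0.221 FPKM in sham and 0.645, 728 and 0 FPKM at day 1. Airway genes such as Scgb1a1 were thus high in sham replicate 1 and day 1 replicate 2. Lung genes such as Sftpc were high only in day 1 replicate 2 among the sham and day 1 libraries. The 10 tested members of the airway and lung marker list summed to 7.51 to 278 FPKM in sham and 7.25 to 1878 FPKM at day 1. Myl7, the myosin light chain of the atria, stood at 619, 13.2 and 30.1 FPKM in sham and 2403, 928 and 35.0 FPKM at day 1, and Bmp10, an atrial growth factor, at 0.241, 0.155 and 0.00731 FPKM in sham and 109.6, 42.0 and 0.0845 FPKM at day 1. The atrial list summed to 290.0 to 2844 FPKM in sham and 329 to 11402 FPKM at day 1, with high values in sham replicate 1 and day 1 replicates 1 and 2. The adipocyte list summed to 765 to 2437 FPKM in sham and 934 to 1414 FPKM at day 1, and its marker Cfd was at 336, 3.22 and 1.73 FPKM in sham and 32.3, 60.5 and 0.576 FPKM at day 1. By limma none of the 10 airway and 11 adipocyte markers was called (0 and 1 at an unadjusted p under 0.05). Many of these transcripts were high in only a few libraries, which widens the spread that the test uses. A missing call here therefore does not show that the groups held equal amounts. Of 13 atrial markers 1 was called, the channel gene Kcna5, and it fell. Its levels were 15.8, 19.5 and 19.5 FPKM in sham and 7.16, 6.48 and 12.2 FPKM at day 1. Because of the airway transcripts, counts below are also given from a fit without sham replicate 1 and day 1 replicate 2 (called the 4-library fit, since it keeps 2 sham and 2 day 1 libraries besides the day 7 ones). This fit keeps day 1 replicate 1, the library with the most Myl7, so atrial transcripts stay unequal in it. The median log2 difference with all libraries and in this fit was 1.77 and 0.20 for airway, 1.17 and 1.80 for atrial and 0.42 and 1.09 for adipocyte markers.

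**Figure D1:**
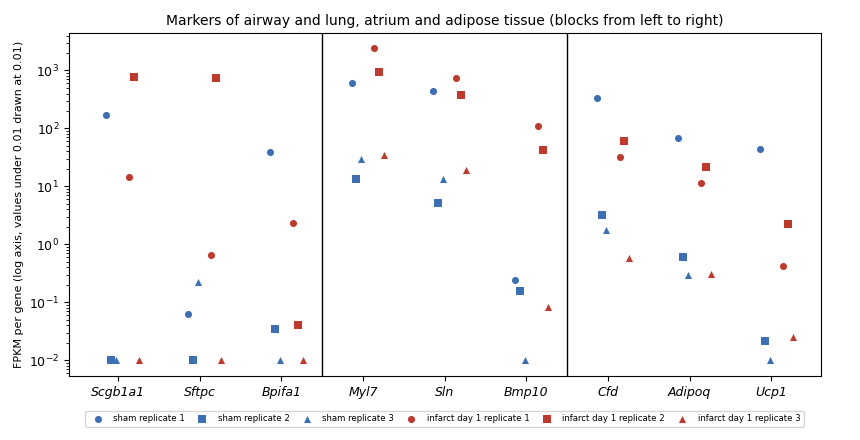
FPKM (log axis) of 9 marker genes in each sham and day 1 library, 1 point per library, with blocks for airway and lung, atrium and adipose tissue. Sham replicate 1 (172 FPKM) and day 1 replicate 2 (780.2 FPKM) stand highest for Scgb1a1, and the replicates 3 are at 0 for it.

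Differences were tested on log2(FPKM + 1) with limma, and a gene is said to have risen or fallen where its Benjamini-Hochberg adjusted p over the 13514 genes was under 0.05. Each ± beside a log2 difference (day 1 minus sham, n = 3 libraries a group) is its standard error. The pseudocount makes these differences smaller than the true change for genes of low level. At day 1, 1817 genes had risen, or 13.4% of those tested, and 1993 had fallen, or 14.7%. Among them 528 rose and 175 fell by at least 2-fold on this scale, so that the larger differences were mostly rises. The sham and day 1 groups did not overlap, in either direction, in 6430 of the 13514 genes tested. Separate groups, mentioned for single genes below, are therefore common and do not by themselves mark a gene out. The 4-library fit called 256 genes higher and 146 lower, or 1.89% and 1.08%. Leaving out 1 library at a time gave 968 to 1775 higher and 790 to 2178 lower, with the fewest calls without day 1 replicate 2. Rises made up 47.7% of the calls on FPKM as deposited and 80.3% on TPM, where 18.1% of the genes rose and 4.45% fell, so the balance of rises and falls depends on the scaling. The counts of list members below are read against these shares. The filter mean takes in the day 1 libraries, so a gene low in sham and at day 7 was tested only where day 1 was high. In lists with such genes this favours rises. Of the calls given below with a log2 difference, the 4-library fit kept those of Arg1, Slfn4, Spp1, Ptx3, Hmox1, Cxcr2, Csf3r, Il1r2, Msr1, Cxcl5, Ccl2, Ccl7, Cxcl9, Il33, Il1r1, Clec4d, Clec4e, Fpr1, Selp, Cd44, Iigp1, Igtp, Irgm1, Gbp10, Gbp4, Cd274, B2m, Psmb10, Psmb8, Psmb9, Prc1, Cdk1, Rrm2, Cdc20, Sdf2l1, Pdia4, Fkbp11, Creld2, Sec61a1, Sec61b, Kdelr3, Creb3l1, Tnc, Fn1, Col1a1, Lox, Adam12, Adam8, Anxa2, S100a11, Vim, Rgcc, Angptl4, F10, Myh7, Myom2, Slc16a3, Bcat1, Ddit4, Ripk3, Hspb8, Dbp, Nr1d1, Nr1d2 and Aldh1a2, and it lost the others.

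**Figure D2:**
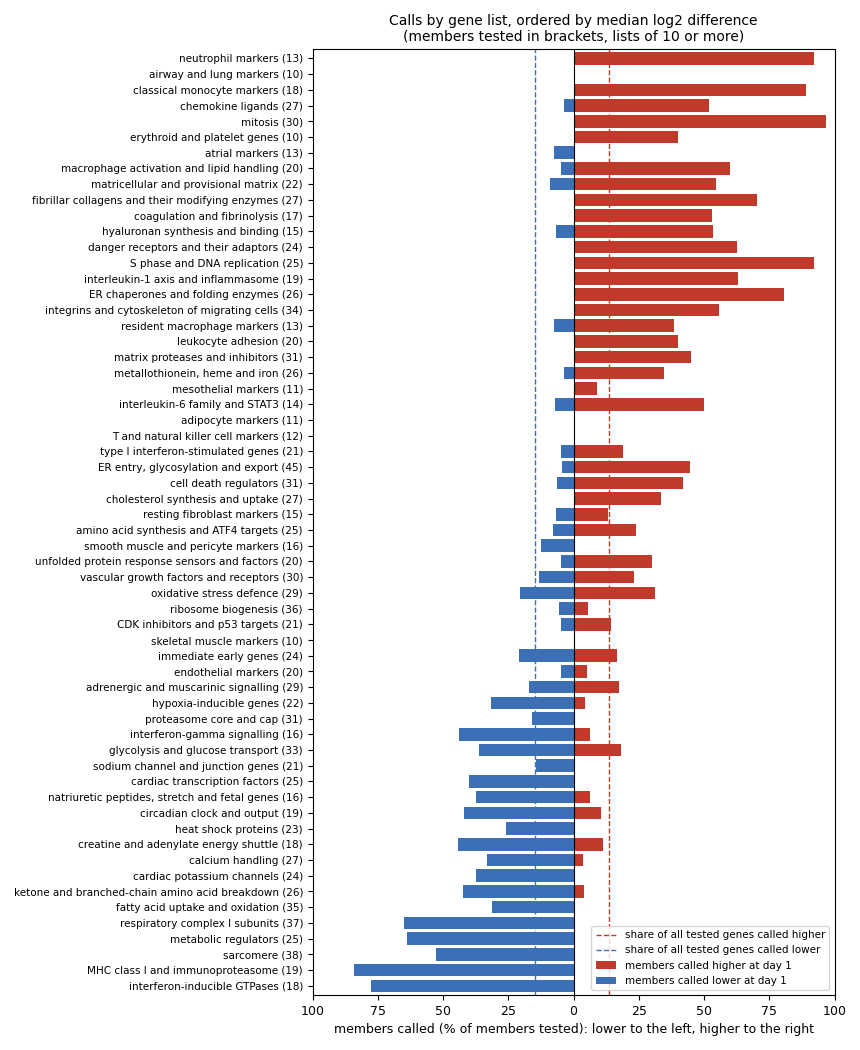
Share of the tested members of each gene list (10 or more members, number in brackets) called higher (right) or lower (left) at day 1, ordered by the median log2 difference, with dashed lines at the shares over all genes, 13.4% and 14.7%. Mitosis, neutrophil and replication lists reach furthest to the right, and the MHC class I and interferon-inducible GTPase lists furthest to the left.

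The largest rise among genes whose higher group averaged at least 5 FPKM was in Arg1, the arginase of wound macrophages, at 0.341, 0.0243 and 0.504 FPKM in sham and 21.8, 50.3 and 83.7 FPKM at day 1 (log2 difference 5.18 ± 0.59, adjusted p = 0.00208). Its sham levels lay under the pseudocount and its day 1 levels did not overlap them. Slfn4, a Schlafen gene of myeloid cells, stood at 1.41, 0.596 and 3.32 FPKM in sham and 65.5, 132 and 36.1 FPKM at day 1 (log2 difference 4.76 ± 0.48, adjusted p = 0.0013). Spp1, which encodes the secreted protein osteopontin, stood at 14.8, 5.23 and 33.7 FPKM in sham and 215, 309 and 378 FPKM at day 1 (log2 difference 4.29 ± 0.56, adjusted p = 0.00288), and its exons overlap Gm42793. For both, the lowest day 1 library was above the highest sham library. Ptx3, a secreted pattern recognition protein, had tight groups, 0.849, 0.688 and 1.11 FPKM in sham and 12.97, 13.9 and 19.7 FPKM at day 1 (log2 difference 3.12 ± 0.29, adjusted p = 0.00108). Hmox1, which breaks down heme, was at 7.90, 6.40 and 11.1 FPKM in sham and 43.6, 69.6 and 123 FPKM at day 1 (log2 difference 2.98 ± 0.33, adjusted p = 0.00207). Apoc2, the activator of lipoprotein lipase, was at 0.888, 0.696 and 3.99 FPKM in sham and 11.7, 19.8 and 22.5 FPKM at day 1 (log2 difference 2.87 ± 0.41, adjusted p = 0.00354). Sham replicate 3 was the highest sham library in all 15 of the largest rises and the lowest in 10 of the 15 largest falls, while over all genes tested it was highest in 30.9% and lowest in 30.2%.

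**Figure D3:**
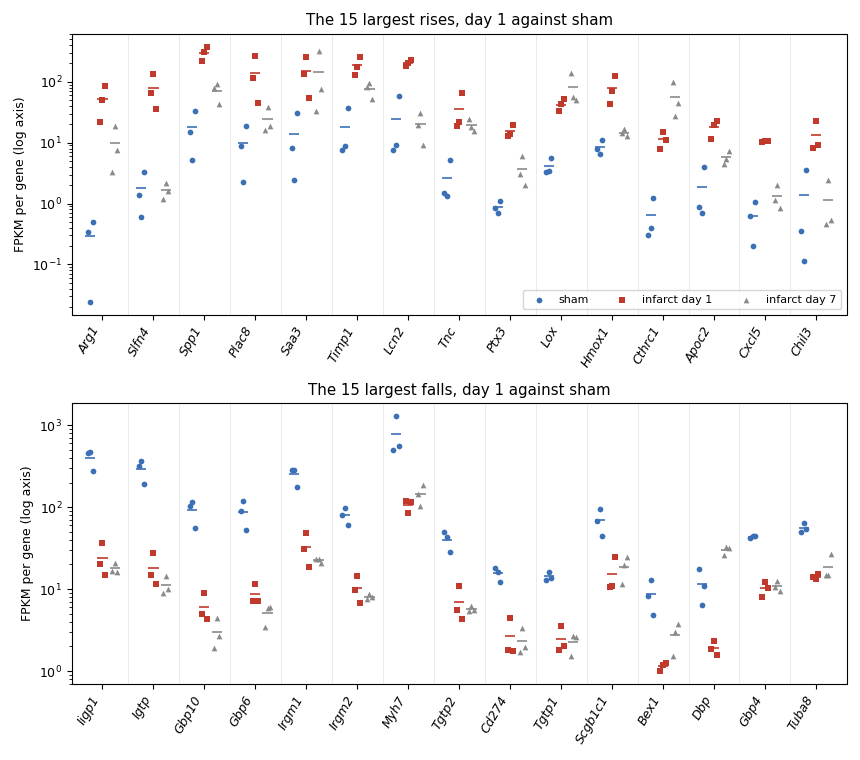
FPKM (log axis) of the 15 genes with the largest rises and the 15 with the largest falls between sham and day 1, with 1 point per library, bars at group means and day 7 libraries in grey. By the rule that chose the 30 genes their sham and day 1 points do not overlap, and sham replicate 3 is the highest sham point in all 15 rises.

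Most tested neutrophil markers rose. The list held 20 markers, of which 7 were under the filter of 1 FPKM and not tested. Of the 13 tested 12 rose and none fell, with a median log2 difference of 1.92 against -0.01 over all genes and 13.4% of them higher. Some members, such as Cxcr2 and Il1r2, were low in sham and at day 7 and passed the filter through day 1. The count and the median are thus in part set by the filter. Cxcr2, the receptor that guides neutrophils along CXC chemokines, was at 0.364, 0.352 and 0.671 FPKM in sham and 4.60, 7.51 and 8.38 FPKM at day 1 (log2 difference 2.39 ± 0.21, adjusted p = 0.00103). Csf3r, the receptor of granulocyte colony-stimulating factor, was at 2.04, 1.52 and 3.82 FPKM in sham and 11.4, 18.9 and 18.1 FPKM at day 1 (log2 difference 2.33 ± 0.27, adjusted p = 0.00213). Il1r2, a decoy receptor for interleukin-1, was at 0.0596, 0.128 and 1.17 FPKM in sham and 3.90, 8.20 and 7.89 FPKM at day 1 (log2 difference 2.42 ± 0.33, adjusted p = 0.0031). All 3 were high in each day 1 library and back near sham levels in the day 7 libraries, whose means were 0.464, 3.59 and 0.539 FPKM. S100a9, an alarmin that fills the neutrophil cytosol, was at 40.1, 30.4 and 36.7 FPKM in sham and 64.5, 185 and 183 FPKM at day 1, with day 1 replicate 1 well below the other two (log2 difference 1.84 ± 0.44, adjusted p = 0.018), and its call was lost without sham replicate 2 or day 1 replicate 2. The neutrophil count was 7 without either of those libraries and 3 in the 4-library fit.

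Markers of classical monocytes behaved alike. Of 18 tested, 16 rose and none fell (median 1.77), and 6 rose in the 4-library fit. Ccr2, the receptor that brings monocytes out of the marrow, was at 7.48, 2.41 and 16.7 FPKM in sham and 41.3, 64.1 and 49.97 FPKM at day 1 (log2 difference 2.70 ± 0.52, adjusted p = 0.00877). Chil3, a chitinase-like protein of monocytes, was at 0.352, 0.116 and 3.62 FPKM in sham and 8.08, 22.6 and 9.19 FPKM at day 1 (log2 difference 2.76 ± 0.59, adjusted p = 0.0122). Day 1 replicate 2, the library with the lung transcripts, was the highest of the day 1 libraries for both. Monocyte markers summed to 288 to 382 FPKM in sham and 650.2 to 1209.6 FPKM at day 1, and the part of lung tissue in this was not tested.

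Of the 20 genes of macrophage activation and lipid handling, 12 rose and 1 fell (median 1.09), and 6 rose and 0 fell in the 4-library fit. Msr1, the class A scavenger receptor, was at 5.06, 4.91 and 7.76 FPKM in sham and 28.8, 37.5 and 41.7 FPKM at day 1 (log2 difference 2.43 ± 0.21, adjusted p = 0.000902). The member that fell was Lpl, lipoprotein lipase, which heart muscle also makes, at 912, 995 and 858 FPKM in sham and 431, 454 and 592 FPKM at day 1 (log2 difference -0.91 ± 0.27, adjusted p = 0.0342). Its call was lost without any 1 of the sham libraries or of day 1 replicates 1 and 2. Resident macrophage markers were mixed, with 5 of 13 higher and 1 lower. Vsig4, a complement receptor of resident macrophages, rose (log2 difference 1.34 ± 0.43, adjusted p = 0.0452) from 1.33, 1.13 and 1.67 FPKM in sham to 10.8, 5.33 and 1.89 FPKM at day 1, where replicate 3 was near sham. Mgl2, a lectin of resident and dendritic cells, fell from 9.55, 6.97 and 6.48 FPKM to 2.22, 2.61 and 5.12 FPKM (log2 difference -1.05 ± 0.29, adjusted p = 0.0297). The resident count did not hold when libraries were left out, with 0 higher when sham replicate 2 was omitted, 1 when day 1 replicate 1 was, 3 when sham replicate 1 was and 2 when sham replicate 3 or day 1 replicate 2 was. None was called in the 4-library fit.

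Chemokine genes that draw these cells rose, 14 of 27 tested, with 1 lower (median 1.59). In the 4-library fit 4 rose and 1 fell. Cxcl5, a neutrophil attractant, was at 0.632, 0.202 and 1.05 FPKM in sham and 10.2, 10.7 and 10.7 FPKM at day 1 (log2 difference 2.86 ± 0.22, adjusted p = 0.000902), with nearly the same level in the 3 day 1 libraries. The monocyte attractants moved together: Ccl2 was at 9.02, 10.4 and 14.1 FPKM in sham and 54.9, 71.5 and 78.5 FPKM at day 1 (log2 difference 2.52 ± 0.23, adjusted p = 0.00108) and Ccl7 at 9.39, 6.18 and 12.7 FPKM in sham and 49.3, 61.0 and 64.7 FPKM at day 1 (log2 difference 2.55 ± 0.28, adjusted p = 0.00184). The member that fell was Cxcl9, a T cell attractant induced by interferon-gamma, at 3.31, 2.57 and 3.81 FPKM in sham and 0.318, 1.27 and 0.339 FPKM at day 1 (log2 difference -1.40 ± 0.23, adjusted p = 0.00543). Cxcl12, a stromal chemokine, rose by less, from 43.9, 52.2 and 50.4 FPKM to 75.0, 86.2 and 85.8 FPKM (log2 difference 0.74 ± 0.14, adjusted p = 0.00729).

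In the interleukin-1 axis 12 of 19 members rose and none fell (median 0.77). Among ligands, Il33, an alarmin held in stromal nuclei, was at 8.93, 5.25 and 5.93 FPKM in sham and 26.2, 38.9 and 27.7 FPKM at day 1 (log2 difference 2.06 ± 0.25, adjusted p = 0.00237), and Il1b at 2.33, 2.21 and 3.93 FPKM in sham and 8.19, 13.2 and 17.7 FPKM at day 1 (log2 difference 1.84 ± 0.33, adjusted p = 0.00718). Il1r1, the signalling receptor, had narrow groups, 6.81, 7.48 and 8.002 FPKM in sham and 16.5, 17.1 and 19.98 FPKM at day 1 (log2 difference 1.16 ± 0.10, adjusted p = 0.000902). The count was 7 when sham replicate 2 or day 1 replicate 2 was left out, and in the 4-library fit 6 members rose and 1 fell. Of the interleukin-6 family 7 of 14 rose and 1 fell, with 4 higher when sham replicate 2 or day 1 replicate 2 was left out and none called in the 4-library fit. Il6 itself was at 0.290, 0.607 and 0.311 FPKM in sham and 3.07, 4.50 and 16.8 FPKM at day 1 (log2 difference 2.40 ± 0.54, adjusted p = 0.0141), with day 1 replicate 3 far above the other two. Socs3, the feedback inhibitor of this pathway, was at 4.52, 4.07 and 7.73 FPKM in sham and 16.7, 22.3 and 30.7 FPKM at day 1 (log2 difference 1.91 ± 0.27, adjusted p = 0.0035). The shared receptor chain Il6st and the factor Stat3 were not called, at 56.3, 62.2 and 54.0 FPKM in sham and 70.6, 67.5 and 63.1 FPKM at day 1 and at 47.8, 56.0 and 51.5 FPKM in sham and 47.5, 50.9 and 65.5 FPKM at day 1.

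Receptors that sense damaged cells followed, with 15 of 24 higher and none lower. The C-type lectin gene Clec4d was at 1.46, 0.721 and 1.52 FPKM in sham and 7.39, 13.3 and 17.8 FPKM at day 1 (log2 difference 2.58 ± 0.28, adjusted p = 0.00184). Clec4e, whose product Mincle binds a nuclear protein released from dead cells, was at 0.350, 0.372 and 0.630 FPKM in sham and 2.48, 4.28 and 5.42 FPKM at day 1 (log2 difference 1.76 ± 0.23, adjusted p = 0.00292). Fpr1, the receptor of formyl peptides such as mitochondria release, was at 0.680, 0.721 and 0.890 FPKM in sham and 3.95, 6.41 and 3.21 FPKM at day 1 (log2 difference 1.61 ± 0.19, adjusted p = 0.00235). In these 3 genes the groups were far apart, and in the 4-library fit 7 list members rose. Tlr4 was not called, at 16.2, 24.8 and 17.8 FPKM in sham and 19.4, 20.5 and 26.8 FPKM at day 1. Of 20 leukocyte adhesion genes 8 rose and none fell, and 5 rose without day 1 replicate 2 and 2 in the 4-library fit. The endothelial selectin gene Selp was at 1.44, 0.469 and 0.992 FPKM in sham and 5.20, 4.96 and 4.28 FPKM at day 1 (log2 difference 1.59 ± 0.23, adjusted p = 0.00381), and Cd44, the hyaluronan receptor, at 10.01, 7.87 and 12.4 FPKM in sham and 26.4, 36.4 and 31.9 FPKM at day 1 (log2 difference 1.56 ± 0.18, adjusted p = 0.00208), while the endothelial junction gene Cdh5 was not called, at 60.1, 65.5 and 68.0 FPKM in sham and 61.6, 67.7 and 101.4 FPKM at day 1.

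With limma, T and natural killer cell markers gave no call among 12, B cell markers none among 3 and mast cell and histamine genes none among 7. At an unadjusted p under 0.05 each list had 1 gene. Day 7 replicate 2 carried far more of several T cell transcripts than the other libraries. At day 7 Cd3g was at 0.402, 20.8 and 0.694 FPKM and Cd4 at 0.353, 12.9 and 0.569 FPKM. The day 7 libraries enter the spread of the fit, so for such genes a missing call does not show equal levels in sham and at day 1. The T and natural killer list summed to 12.4 to 27.7 FPKM in sham and 15.4 to 48.5 FPKM at day 1. Gzma, a granzyme of cytotoxic cells, was at 4.38, 4.82 and 8.84 FPKM in sham and 1.83, 5.99 and 0.897 FPKM at day 1 (adjusted p = 0.17). Hdc, the histamine-forming enzyme that the series names, was at 2.21, 1.92 and 2.24 FPKM in sham and 3.27, 6.14 and 2.12 FPKM at day 1 (log2 difference 0.55 ± 0.29, adjusted p = 0.183), so its groups overlapped.

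Of the 15 largest falls 10 were in genes known to be induced by interferon-gamma, namely Iigp1, Igtp, Gbp10, Gbp6, Irgm1, Irgm2, Tgtp2, Cd274, Tgtp1 and Gbp4. All 10 were also called in the 4-library fit. Such genes include the immunity-related GTPases and guanylate-binding proteins, which attack the vacuoles of intracellular microbes, and the machinery that cuts peptides and shows them on MHC class I. Of 18 interferon-inducible GTPases tested 14 fell and none rose (median -1.85). The 4 that were not called are Gbp2, Gbp8, Gm4951 and Ifi47. Of 19 genes of MHC class I and the immunoproteasome 16 fell and none rose (median -0.93). Over the fits without 1 library the GTPase count was 11 to 15. The 4-library fit called 13 GTPases and 15 MHC class I genes lower, where 1.08% of all genes fell. On TPM 11 and 6 were lower, where 4.45% of all genes fell.

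Iigp1 was at 465, 469.7 and 278 FPKM in sham and at 20.4, 36.2 and 14.9 FPKM at day 1 (log2 difference -4.08 ± 0.31, adjusted p = 0.000902). Igtp was at 322, 367 and 194 FPKM in sham and 14.8, 27.3 and 11.5 FPKM at day 1 (log2 difference -4.01 ± 0.34, adjusted p = 0.000902), and Irgm1, which keeps other GTPases of the family off the cell's own membranes, at 288, 288 and 177 FPKM in sham and 31.0, 48.9 and 18.5 FPKM at day 1 (log2 difference -2.97 ± 0.32, adjusted p = 0.00178). In each, sham replicate 3 was the lowest sham library and day 1 replicate 2 the highest day 1 library, yet the groups stayed far apart. Gbp10 was at 104, 115 and 55.0 FPKM in sham and 4.91, 8.85 and 4.28 FPKM at day 1 (log2 difference -3.71 ± 0.35, adjusted p = 0.0011), and Gbp4 at 42.3, 43.9 and 44.6 FPKM in sham and 8.003, 12.2 and 10.4 FPKM at day 1 (log2 difference -2.01 ± 0.14, adjusted p = 0.000737). Day 7 levels were as low: Iigp1 was at 16.6, 20.9 and 16.3 FPKM and Igtp at 8.97, 14.4 and 9.98 FPKM. Exons of Igtp overlap Irgm2 on the same strand in the GENCODE annotation, those of Gbp6 and Gbp10 both overlap Gm43302, and those of Gbp4 overlap Gbp8 and Gbp9. The authors' counting could have divided reads among these overlapping genes, so each single value is uncertain.

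The promoters of these GTPases carry letters known from interferon response elements. In the RefSeq promoter table (build GRCm38.p6) 11 of the 18 genes had an entry. The gamma-activated site, TTCNNNGAA, lay in the 250 bases before the start in 6 of the 11, against 7.02% of all 32851 entries. The core of the interferon-stimulated response element, GAAA, any 2 bases and GAAA on either strand, lay there in 10 of the 11, against 2.98%. The stretches below hold the 3 genes with the largest falls that have a match, with the matches in capitals. Igtp lies on the + strand (chr11:58199501-58199541, bases -55 to -15 from the start), Irgm1 on the - strand (chr11:48871425-48871460, bases -40 to -5) and Irgm2 on the + strand (chr11:58214892-58214932, bases -85 to -45).
Igtp: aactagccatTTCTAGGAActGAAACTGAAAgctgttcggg
Irgm1: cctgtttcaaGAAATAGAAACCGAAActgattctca
Irgm2: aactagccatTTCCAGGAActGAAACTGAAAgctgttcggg
Both Igtp and Irgm2 hold a gamma-activated site followed after 2 bases by the response element core. Irgm1 holds 2 overlapping cores and no gamma-activated site in this window. A match of letters is a description of the sequence and does not show that a factor was bound.

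Components of the interferon-gamma pathway were divided. Of 16 tested 7 fell and 1, Jak2, rose. Cd274, which encodes the checkpoint ligand PD-L1, was at 18.2, 16.3 and 12.3 FPKM in sham and 1.80, 4.46 and 1.75 FPKM at day 1 (log2 difference -2.23 ± 0.29, adjusted p = 0.00288). Ifngr2, a chain of the receptor, was at 48.7, 48.3 and 49.9 FPKM in sham and 33.2, 28.4 and 37.0 FPKM at day 1 (log2 difference -0.57 ± 0.12, adjusted p = 0.0112), while the kinase gene Jak1 was not called, at 42.6, 45.3 and 43.9 FPKM in sham and 43.1, 46.2 and 54.4 FPKM at day 1. The number lower was 4 without any 1 sham library, 5 in the 4-library fit and 3 on TPM, where 2 rose.

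In the antigen presentation group, B2m, the light chain of MHC class I, was at 1562, 1474 and 1260.0 FPKM in sham and 546, 851 and 527 FPKM at day 1 (log2 difference -1.19 ± 0.21, adjusted p = 0.00664). Psmb10, an immunoproteasome subunit, was at 93.8, 76.1 and 71.9 FPKM in sham and 19.6, 28.2 and 21.1 FPKM at day 1 (log2 difference -1.77 ± 0.16, adjusted p = 0.00106). Both were called under every alternative tried. Psmb8 was at 85.7, 57.6 and 61.9 FPKM in sham and 25.9, 43.9 and 20.8 FPKM at day 1 (log2 difference -1.20 ± 0.30, adjusted p = 0.0195) and Psmb9 at 20.9, 21.5 and 16.3 FPKM in sham and 7.17, 12.7 and 4.35 FPKM at day 1 (log2 difference -1.28 ± 0.31, adjusted p = 0.0192), with day 1 replicate 2 nearest to sham in each. Psmb8 lost its call without sham replicate 1 or day 1 replicate 1, and Psmb9 also without sham replicate 2. The MHC class I count was 9 without sham replicate 1 or day 1 replicate 1, 10 without sham replicate 2 and 18 without day 1 replicate 2. MHC class II genes were not called, apart from the protease gene Ctss, which rose (log2 difference 1.59 ± 0.34, adjusted p = 0.0122) but was not called in the 4-library fit, and the invariant chain Cd74 was at 255, 138 and 206 FPKM in sham and 103, 157 and 100.1 FPKM at day 1. Of 31 constitutive proteasome subunits 5 fell, a share near that of all genes (14.7% lower), with a median of -0.26. This depended on the scaling, and on TPM none fell and the median was 0.02. Without day 1 replicate 3 the number of proteasome subunits called lower was 24, without sham replicate 1 or 3 it was 1, and without sham replicate 2 or day 1 replicates 1 or 2, and in the 4-library fit, it was 0.

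Of 21 genes of the type I interferon response 4 rose and 1 fell, a share near that of all genes (13.4% higher), and none was called in the 4-library fit. Their difference from the GTPases was not tested. Oas3, an antiviral sensor of double-stranded RNA, was at 0.858, 0.677 and 1.45 FPKM in sham and 9.0, 19.1 and 3.45 FPKM at day 1 (log2 difference 2.29 ± 0.45, adjusted p = 0.00916), and Oasl1 at 2.495, 2.06 and 3.49 FPKM in sham and 7.72, 18.3 and 4.79 FPKM at day 1 (log2 difference 1.45 ± 0.37, adjusted p = 0.0227), a call lost without sham replicate 1 or 2. In both, replicate 2 was the highest and replicate 3 the lowest of the day 1 libraries. Isg15, a ubiquitin-like modifier, had the same order, 21.6, 17.4 and 20.1 FPKM in sham and 51.0, 91.4 and 16.6 FPKM at day 1, with day 1 replicate 3 below sham replicate 1, and was not called (log2 difference 1.09 ± 0.50, adjusted p = 0.137). Without day 1 replicate 3, 13 of the 21 rose. Without sham replicate 1, day 1 replicate 1 or day 1 replicate 2 it was 2, and without sham replicate 2 it was 1.

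**Figure D4:**
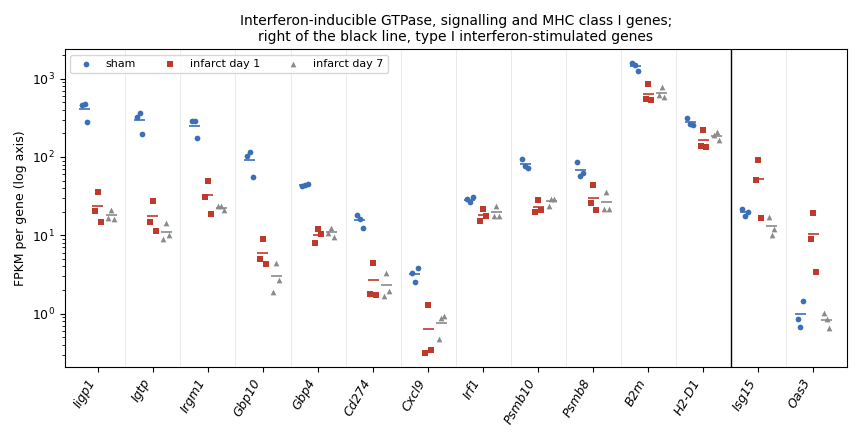
FPKM (log axis) of interferon-related genes, 1 point per library and bars at group means, in sham, at day 1 and at day 7. GTPase genes such as Iigp1 lie far below sham at day 1 and day 7, whereas Isg15 and Oas3, right of the black line, spread widely at day 1, with replicate 3 the lowest.

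Cell cycle transcripts rose with little dependence on any 1 library. Of 30 mitosis genes 29 rose and none fell, with a median of 1.54, and the count was 28 or 29 over the fits without 1 library. Cenpa was not called. Of 25 S phase and replication genes 23 rose (median 0.79), and 17 to 22 rose over those fits. The 4-library fit called 12 and 11 higher, where 1.89% of all genes rose. Prc1, which bundles microtubules between separating chromosomes, was at 1.03, 0.812 and 1.94 FPKM in sham and 8.05, 9.08 and 11.6 FPKM at day 1 (log2 difference 2.25 ± 0.21, adjusted p = 0.0011). Cdk1, the kinase that drives entry into mitosis, was at 1.74, 1.05 and 2.30 FPKM in sham and 7.34, 11.1 and 14.8 FPKM at day 1 (log2 difference 2.14 ± 0.24, adjusted p = 0.00207). Rrm2, which makes deoxynucleotides for replication, was at 1.27, 1.24 and 1.87 FPKM in sham and 5.54, 6.76 and 7.84 FPKM at day 1 (log2 difference 1.64 ± 0.21, adjusted p = 0.00268). Levels were low, yet in all 3 genes the lowest day 1 library was well above the highest sham library. Mki67, the proliferation marker, was at 4.02, 2.14 and 5.73 FPKM in sham and 14.1, 15.95 and 17.4 FPKM at day 1 (log2 difference 1.82 ± 0.30, adjusted p = 0.00541). Of 21 CDK inhibitors and p53 targets 3 rose and 1 fell, next to 13.4% and 14.7% of all genes, and none was called in the 4-library fit. Cdkn1c, a brake on the cycle, was the one that fell, from 9.61, 7.48 and 8.66 FPKM to 4.93, 4.82 and 3.94 FPKM (log2 difference -0.78 ± 0.12, adjusted p = 0.00438), a call lost on TPM, and Cdkn1a was not called, at 28.1, 51.1 and 32.4 FPKM in sham and 31.9, 34.3 and 33.4 FPKM at day 1.

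Mitosis promoters commonly pair CCAAT boxes with a cell cycle homology region. The letters of that region, TTTGAA or TTCGAA, lay within 250 bases before the start in 10 of 26 mitosis genes with a promoter entry, against 17.1% of all entries. CCAAT lay there in 19 of the 26, against 33.9%. Both strands were searched, and the stretches show the 3 members with the largest rises that have a match, with the matches in capitals. Prc1 is on the + strand (chr7:80294404-80294461, bases -72 to -15), Cdk1 on the - strand (chr10:69352913-69353130, bases -218 to -1) and Cdc20 on the - strand (chr4:118437344-118437406, bases -63 to -1).
Prc1: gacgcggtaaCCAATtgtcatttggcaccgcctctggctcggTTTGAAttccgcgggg
Cdk1: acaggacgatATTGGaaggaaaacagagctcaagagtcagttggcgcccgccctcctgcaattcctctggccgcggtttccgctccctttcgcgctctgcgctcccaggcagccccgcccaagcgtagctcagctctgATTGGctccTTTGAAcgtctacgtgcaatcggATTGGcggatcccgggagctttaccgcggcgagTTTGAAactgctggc
Cdc20: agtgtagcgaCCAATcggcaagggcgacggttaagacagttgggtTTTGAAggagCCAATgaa
All 3 stretches hold both kinds of letters. Cdc20, which switches on the ligase that ends mitosis, was at 0.793, 0.657 and 1.58 FPKM in sham and 6.15, 6.83 and 8.01 FPKM at day 1 (log2 difference 2.01 ± 0.25, adjusted p = 0.00258).

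Folding of secreted proteins takes place in the endoplasmic reticulum (ER), where chaperones and disulfide isomerases act on chains that enter through the Sec61 channel. Of 26 ER chaperones and folding enzymes 21 rose and none fell (median 0.73). The count was 19 to 21 without any 1 library, 9 in the 4-library fit and 22 on TPM. Sdf2l1, a partner of the chaperone BiP, was at 7.96, 8.94 and 10.6 FPKM in sham and 29.98, 29.5 and 37.0 FPKM at day 1 (log2 difference 1.71 ± 0.12, adjusted p = 0.000737). Pdia4, a disulfide isomerase, was at 22.9, 24.8 and 26 FPKM in sham and 60.3, 64.9 and 67.2 FPKM at day 1 (log2 difference 1.35 ± 0.09, adjusted p = 0.000545). Both had narrow groups and were called under every alternative. Fkbp11, a prolyl isomerase, was at 3.19, 3.75 and 5.72 FPKM in sham and 13.9, 14.5 and 15.6 FPKM at day 1 (log2 difference 1.61 ± 0.18, adjusted p = 0.00208). The abundant members rose by less: Hsp90b1, which encodes GRP94, was at 222, 245 and 227 FPKM in sham and 366, 379 and 409 FPKM at day 1 (log2 difference 0.73 ± 0.10, adjusted p = 0.00292), Hspa5, which encodes BiP, at 225, 269 and 227 FPKM in sham and 341, 327 and 408 FPKM at day 1 (log2 difference 0.57 ± 0.12, adjusted p = 0.0122), and Calr at 185, 208 and 212 FPKM in sham and 336, 367 and 374 FPKM at day 1 (log2 difference 0.83 ± 0.11, adjusted p = 0.00292). Their groups did not overlap. At day 7 Hsp90b1 was at 241, 221 and 222 FPKM and Calr at 236, 199 and 206 FPKM, near sham. Exons of Hsp90b1 overlap Gm15344.

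The ER stress response element, CCAAT followed after 9 bases by CCACG on either strand, lay within 250 bases before the start in 7 of the 22 list members with an entry, against 0.113% of all entries. The 3 members below had the largest rises among those named with a match, and the capitals mark the element with its 9 spacer bases. Creld2 is on the + strand (chr15:88819510-88819548, bases -136 to -98), Calr on the - strand (chr8:84847065-84847103, bases -172 to -134) and Hsp90b1 on the - strand (chr10:86705523-86705666, bases -222 to -79).
Creld2: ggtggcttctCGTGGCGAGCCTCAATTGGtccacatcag
Calr: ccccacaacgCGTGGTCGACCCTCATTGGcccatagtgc
Hsp90b1: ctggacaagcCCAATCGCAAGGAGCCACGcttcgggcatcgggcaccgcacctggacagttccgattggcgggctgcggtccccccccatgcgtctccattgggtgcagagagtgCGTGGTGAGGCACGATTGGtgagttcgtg
Hsp90b1 holds the element in both directions. Creld2, a disulfide isomerase-like protein, was at 11.03, 13.1 and 11.4 FPKM in sham and 30.3, 30.2 and 33.5 FPKM at day 1 (log2 difference 1.33 ± 0.11, adjusted p = 0.000902). Sdf2l1, Fkbp11 and Pdia4, the members with larger rises, had no match in this window or no entry.

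Genes of ER entry, glycosylation and export rose in part, 20 of 45, with 2 lower, and the count was 14 without sham replicate 1, sham replicate 3 or day 1 replicate 2 and 4 in the 4-library fit. The channel subunits Sec61a1 and Sec61b were at 15.5, 16.6 and 16.4 FPKM in sham and 32.7, 34.3 and 33.9 FPKM at day 1 (log2 difference 1.01 ± 0.10, adjusted p = 0.0013) and at 30.6, 29.0 and 31.5 FPKM in sham and 56.9, 71.2 and 77.8 FPKM at day 1 (log2 difference 1.14 ± 0.14, adjusted p = 0.00229). Kdelr3, which returns escaped chaperones to the ER, was at 5.74, 7.06 and 6.68 FPKM in sham and 15.6, 14.4 and 18.1 FPKM at day 1 (log2 difference 1.18 ± 0.17, adjusted p = 0.00381). Among 20 sensors and factors of the unfolded protein response 6 rose and 1 fell. Creb3l1, a membrane-bound factor that controls collagen secretion, was at 3.995, 4.73 and 4.45 FPKM in sham and 15.5, 17.8 and 16.6 FPKM at day 1 (log2 difference 1.71 ± 0.10, adjusted p = 0.000545) and was called under every alternative. Xbp1 was at 41.0, 39.2 and 38.4 FPKM in sham and 51.1, 52.8 and 56.4 FPKM at day 1 (log2 difference 0.43 ± 0.10, adjusted p = 0.0149), a call lost without sham replicate 2. Ddit3, the stress factor CHOP, was the 1 that fell, from 36.7, 68.1 and 26.7 FPKM to 13.95, 13.50 and 15.2 FPKM (log2 difference -1.46 ± 0.27, adjusted p = 0.00793). Sham replicate 2 had the highest Ddit3 level, and the day 1 libraries lay close together below all 3 sham libraries. Atf4, which acts upstream of Ddit3, was not called (log2 difference 0.01 ± 0.20, adjusted p = 0.967), and of 25 ATF4 targets and amino acid synthesis genes 6 rose and 2 fell, with 3 higher when sham replicate 1, sham replicate 3 or day 1 replicate 2 was left out and 0 higher and 1 lower in the 4-library fit. Without sham replicate 2 or day 1 replicate 2 the number of response factors that rose was 2, without sham replicate 3 it was 3 and in the 4-library fit it was 1.

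Extracellular matrix genes rose, from provisional matrix to collagen. Of 22 matricellular and provisional matrix genes 12 rose and 2 fell (median 0.93), and 4 rose in the 4-library fit. Tnc, tenascin C, was at 1.51, 1.36 and 5.17 FPKM in sham and 18.9, 22.1 and 64.8 FPKM at day 1 (log2 difference 3.23 ± 0.50, adjusted p = 0.00433). Fn1, fibronectin, was at 32.9, 19.8 and 26.1 FPKM in sham and 103, 111 and 139 FPKM at day 1 (log2 difference 2.14 ± 0.28, adjusted p = 0.00279) and at 616, 325 and 323 FPKM at day 7. Cthrc1, a marker of activated fibroblasts, was at 0.304, 0.391 and 1.25 FPKM in sham and 7.79, 15.1 and 10.9 FPKM at day 1 (log2 difference 2.90 ± 0.44, adjusted p = 0.00411) and at 98.9, 27.2 and 45.0 FPKM at day 7. All day 7 libraries were above all day 1 libraries in both genes. Ccn2, a target of TGF-beta, was not called, at 136, 146 and 126 FPKM in sham and 261, 152 and 216 FPKM at day 1.

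Of 27 fibrillar collagens and their modifying enzymes 19 rose and none fell (median 0.92). Col1a1 was at 50.1, 46.1 and 77.7 FPKM in sham and 256, 285 and 218 FPKM at day 1 (log2 difference 2.14 ± 0.23, adjusted p = 0.00184), Col3a1 at 168, 117 and 305 FPKM in sham and 852, 832 and 598 FPKM at day 1 (log2 difference 2.04 ± 0.33, adjusted p = 0.00499), and Lox, which crosslinks collagen, at 3.28, 3.45 and 5.52 FPKM in sham and 33.2, 42.5 and 51.2 FPKM at day 1 (log2 difference 3.10 ± 0.37, adjusted p = 0.00229). Sham replicate 3 was the highest sham library in each. The count was 12 without sham replicate 1, sham replicate 2 or day 1 replicate 2, and 4 in the 4-library fit. Of 31 matrix proteases and inhibitors 14 rose, and 4 rose in the 4-library fit. Timp1, an inhibitor of metalloproteinases, was at 7.66, 8.94 and 37.7 FPKM in sham and 130.0, 177 and 253 FPKM at day 1 (log2 difference 3.60 ± 0.54, adjusted p = 0.00394), while Timp3 and Timp2 were not called (111, 101.2 and 93.0 FPKM in sham and 82.6, 74.2 and 54.8 FPKM at day 1 for Timp3). Adam12, a metalloprotease of activated mesenchyme, was at 2.39, 0.740 and 0.921 FPKM in sham and 9.97, 10.8 and 12.9 FPKM at day 1 (log2 difference 2.44 ± 0.23, adjusted p = 0.0011), and Adam8, one of myeloid cells, at 1.19, 0.533 and 2.14 FPKM in sham and 8.84, 14.5 and 15.2 FPKM at day 1 (log2 difference 2.62 ± 0.30, adjusted p = 0.00207). Of 15 hyaluronan genes 8 rose and 1 fell, among them the proteoglycan gene Vcan, at 12.0, 23.8 and 19.2 FPKM in sham and 40.4, 41.8 and 45.6 FPKM at day 1 (log2 difference 1.22 ± 0.24, adjusted p = 0.00963), and 4 rose in the 4-library fit.

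Genes of migrating cells rose in 19 of 34 cases with none lower (median 0.68), and in 6 cases in the 4-library fit. Anxa2, which binds membranes and plasminogen, was at 84.6, 76.8 and 90.8 FPKM in sham and 189, 232 and 267 FPKM at day 1 (log2 difference 1.43 ± 0.16, adjusted p = 0.00207). S100a11 was at 144, 128 and 154 FPKM in sham and 291, 375 and 382 FPKM at day 1 (log2 difference 1.29 ± 0.16, adjusted p = 0.00237), and the intermediate filament gene Vim at 219.9, 161 and 243 FPKM in sham and 483, 459 and 512 FPKM at day 1 (log2 difference 1.24 ± 0.19, adjusted p = 0.00405). The cytoplasmic actin gene Actb was at 576, 546 and 655 FPKM in sham and 1024, 1361 and 1434 FPKM at day 1 (log2 difference 1.09 ± 0.16, adjusted p = 0.00381), so it did not keep a constant level between these groups on FPKM. By contrast, markers of resting fibroblasts, endothelium and smooth muscle gave few calls, 2 higher and 1 lower of 15, 1 and 1 of 20, and 0 and 2 of 16. In the 4-library fit 1 gene of these lists was called, the endothelial gene Rgcc, which fell. The fibroblast proteoglycan gene Dcn was at 696, 689 and 729.7 FPKM in sham and 683, 545 and 477 FPKM at day 1 (adjusted p = 0.133). Rgcc, a cell cycle regulator, was at 55.1, 54.9 and 46.4 FPKM in sham and 13.7, 23.5 and 19.4 FPKM at day 1 (log2 difference -1.45 ± 0.21, adjusted p = 0.00381). Without day 1 replicate 3 the number of endothelial genes lower was 5. The endothelial median was -0.04 on FPKM and 0.23 on TPM.

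Of 30 vascular growth factor and receptor genes 7 rose and 4 fell, next to 13.4% and 14.7% of all genes, so the falls were near the overall share. The rises were 3 without sham replicate 2 and 4 without day 1 replicate 2, and the falls 1 or 2 unless day 1 replicate 3 was the library left out. In the 4-library fit 2 rose and 0 fell. Angptl4, an inhibitor of lipoprotein lipase, was at 13.1, 2.73 and 5.36 FPKM in sham and 41.1, 47.1 and 33.6 FPKM at day 1 (log2 difference 2.57 ± 0.43, adjusted p = 0.00559). Apln, the ligand of the apelin receptor, was at 1.83, 1.55 and 1.53 FPKM in sham and 4.06, 5.04 and 12.6 FPKM at day 1 (log2 difference 1.505 ± 0.34, adjusted p = 0.0149), with day 1 replicate 3 the highest, and its call was lost without sham replicate 2. Vegfa, the main driver of vessel growth, fell from 91.0, 140.2 and 94.9 FPKM to 48.5, 59.9 and 69.8 FPKM (log2 difference -0.85 ± 0.20, adjusted p = 0.0153), and Vegfb from 129, 142 and 118 FPKM to 89.0, 73.8 and 85.2 FPKM (log2 difference -0.64 ± 0.15, adjusted p = 0.0165). No day 1 value of either gene reached the lowest sham value. The call of Vegfb was lost without sham replicate 2 or day 1 replicate 2. Of 17 coagulation and fibrinolysis genes 9 rose and none fell, and 2 rose in the 4-library fit. F10, coagulation factor X, was at 0.646, 0.179 and 0.436 FPKM in sham and 2.34, 3.40 and 2.57 FPKM at day 1 (log2 difference 1.41 ± 0.21, adjusted p = 0.00381).

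Heart muscle genes fell with a smaller median than the interferon-inducible GTPases. Of 38 sarcomere genes 20 fell and none rose (median -0.66), and 15 fell on TPM. Myh7, the slow myosin heavy chain that adult mouse ventricle expresses little, was at 499, 1298 and 556 FPKM in sham and 121, 85.9 and 115 FPKM at day 1 (log2 difference -2.74 ± 0.36, adjusted p = 0.00292), with sham replicate 2 far above the other two. Its exons overlap those of Mhrt on the opposite strand. Myom2, an M-band protein, was at 344, 367 and 320.5 FPKM in sham and 154, 113 and 120.2 FPKM at day 1 (log2 difference -1.42 ± 0.16, adjusted p = 0.00213). Tcap, the titin cap, was at 1108, 984 and 991 FPKM in sham and 303, 295 and 454 FPKM at day 1 (log2 difference -1.58 ± 0.31, adjusted p = 0.00908). In the 4-library fit 2 members were lower, Myom2 and Myh7. Myh6, the main heavy chain, whose values are given above, was not called (adjusted p = 0.0954), although its groups did not overlap. The sarcomere count was 9 without sham replicate 2 or day 1 replicate 2, 12 without sham replicate 3 and 13 without day 1 replicate 1.

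Calcium handling genes fell in 9 of 27 cases and rose in 1 (median -0.41). Pln, phospholamban, the brake of the calcium pump, was at 2068, 2430.5 and 2209.9 FPKM in sham and 834, 875 and 1172 FPKM at day 1 (log2 difference -1.23 ± 0.26, adjusted p = 0.0112). Jph2, which holds the junction between surface membrane and calcium store, was at 73.8, 95.5 and 89.7 FPKM in sham and 43.1, 40.0 and 49.6 FPKM at day 1 (log2 difference -0.95 ± 0.17, adjusted p = 0.00743). The pump gene Atp2a2 was not called, at 1945, 2083 and 1960.0 FPKM in sham and 1636, 1354 and 1308 FPKM at day 1. Leaving out sham replicate 2 or day 1 replicate 2 gave 5 lower, and none was called in the 4-library fit.

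Of 24 cardiac potassium and pacemaker channel genes 9 fell and none rose (median -0.48). Hcn2, a pacemaker channel, was at 6.81, 8.42 and 7.26 FPKM in sham and 2.81, 2.88 and 3.26 FPKM at day 1 (log2 difference -1.09 ± 0.18, adjusted p = 0.0054). Kcnip2, the subunit behind the fast outward current, was at 52.9, 67.5 and 52.0 FPKM in sham and 29.0, 26.1 and 26.3 FPKM at day 1 (log2 difference -1.05 ± 0.30, adjusted p = 0.0312). The groups of Kcnip2 were far apart, yet its call was lost without any 1 library, whereas that of Hcn2 held without any 1 library. Kcnk3, a background channel, was at 55.9, 62.3 and 52.5 FPKM in sham and 37.5, 29.9 and 30.1 FPKM at day 1 (log2 difference -0.79 ± 0.19, adjusted p = 0.0166), a call lost without sham replicate 2 or day 1 replicate 2. Without sham replicate 2 or day 1 replicate 2 the count was 3, without sham replicate 1 or 3 it was 6, and in the 4-library fit it was 0. Among 21 sodium channel and junction genes 7 fell when day 1 replicate 3 was left out. With all libraries 3 fell, near the share of all genes (14.7% lower). The 3 included Ank2, which anchors channels and exchangers (log2 difference -0.86 ± 0.17, adjusted p = 0.00893), and the desmosome gene Dsp (log2 difference -0.62 ± 0.16, adjusted p = 0.0239). Ank2 was at 95.7, 120.0 and 113 FPKM in sham and 69.0, 52.8 and 58.7 FPKM at day 1, and Dsp at 179, 223 and 219.8 FPKM in sham and 131, 116 and 157 FPKM at day 1. In the 4-library fit 1 of the list fell. The call of Dsp was lost on TPM and without sham replicate 2 or 3 or day 1 replicate 1 or 2.

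Of 25 cardiac transcription factors 10 fell and none rose. Irx4, which marks ventricle, was at 7.16, 9.88 and 10.03 FPKM in sham and 2.70, 3.39 and 5.52 FPKM at day 1 (log2 difference -1.07 ± 0.24, adjusted p = 0.0148), and Myocd, a coactivator of muscle genes, at 21.6, 24.6 and 21.0 FPKM in sham and 13.9, 11.9 and 10.9 FPKM at day 1 (log2 difference -0.82 ± 0.15, adjusted p = 0.00674). Without sham replicate 2 or day 1 replicate 2 the Irx4 call was lost and the count was 4, on TPM it was 5 and in the 4-library fit 0. Of 16 natriuretic, stretch and fetal genes 6 fell and 1 rose, with 3 lower when sham replicate 2 was left out and 2 when day 1 replicate 2 was, and 1 lower and 0 higher in the 4-library fit. Fhl2 was at 735, 934 and 787 FPKM in sham and 308, 347 and 462 FPKM at day 1 (log2 difference -1.15 ± 0.21, adjusted p = 0.00768). Nppa, atrial natriuretic peptide, was at 1021, 1413 and 156 FPKM in sham and 5921, 2235 and 192 FPKM at day 1 and was not called (log2 difference 1.17 ± 1.34, adjusted p = 0.549). Its low libraries, sham replicate 3 and day 1 replicate 3, were also low in Myl7. Sham replicate 2 went the other way, with the highest sham level of Nppa but the lowest Myl7 of the 6 libraries, 13.2 FPKM. The part of atrial tissue in the Nppa levels was not tested. Adrenergic and muscarinic genes were called 5 higher and 5 lower of 29, near the shares of all genes (13.4% and 14.7%). Their median was -0.19, and 0.06 on TPM. Leaving out 1 library gave 3 to 5 of them higher and 1 to 3 lower, and the 4-library fit called none.

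Genes of energy metabolism fell in part. The heart burns mainly fatty acids under the control of PPAR and estrogen-related receptors. Of 25 metabolic regulators 16 fell and none rose (median -0.62), with 8 lower on TPM and 1 in the 4-library fit. Ppara was at 17.1, 15.98 and 17.7 FPKM in sham and 7.08, 6.36 and 7.00 FPKM at day 1 (log2 difference -1.20 ± 0.17, adjusted p = 0.00369), with the 3 day 1 libraries within 1 FPKM of each other. Perm1, a muscle-specific partner of PGC-1, was at 60.7, 80.7 and 63.0 FPKM in sham and 24.9, 25.01 and 30.8 FPKM at day 1 (log2 difference -1.30 ± 0.21, adjusted p = 0.00541), and the retinoid receptor gene Rxrg at 29.4, 33.8 and 25.5 FPKM in sham and 10.4, 11.7 and 12.3 FPKM at day 1 (log2 difference -1.29 ± 0.21, adjusted p = 0.00519). Ppargc1a, which encodes PGC-1 alpha, was at 56.4, 46.0 and 66.2 FPKM in sham and 29.96, 25.3 and 22.6 FPKM at day 1 (log2 difference -1.08 ± 0.33, adjusted p = 0.0387), a call lost without any 1 library. The regulator count was 9 or 10 without sham replicate 1, sham replicate 2 or day 1 replicate 2.

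Of 35 genes of fatty acid uptake and oxidation 11 fell and none rose (median -0.59). Fabp3, the heart fatty acid carrier, was at 3507, 3887 and 2852 FPKM in sham and 1334, 1364 and 1897 FPKM at day 1 (log2 difference -1.16 ± 0.27, adjusted p = 0.0151), and Plin5, which coats lipid droplets, at 36.6, 33.8 and 38.6 FPKM in sham and 12.8, 15.9 and 13.6 FPKM at day 1 (log2 difference -1.31 ± 0.31, adjusted p = 0.0163). This count was 1 without sham replicate 2 or day 1 replicate 2 and 4 or 5 without sham replicate 1, sham replicate 3 or day 1 replicate 1, and 0 in the 4-library fit. Of 37 nuclear-encoded subunits of respiratory complex I 24 fell and none rose (median -0.61), with 17 lower on TPM. Ndufb3 was at 267, 320.1 and 259 FPKM in sham and 132, 133 and 183 FPKM at day 1 (log2 difference -0.92 ± 0.18, adjusted p = 0.00922), and Ndufc2 at 190.3, 210.4 and 189 FPKM in sham and 105, 99.7 and 125 FPKM at day 1 (log2 difference -0.84 ± 0.14, adjusted p = 0.00546). The complex I count was 3 to 12 without any 1 of the sham libraries or of day 1 replicates 1 and 2, 29 without day 1 replicate 3 and 0 in the 4-library fit. Day 1 replicate 3 was the highest day 1 library in all 37 subunits, next to 46.7% of all genes tested.

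Glucose genes were divided. Of 33 glycolysis and glucose transport genes 6 rose and 12 fell. Leaving out 1 library gave 2 to 6 higher and 2 to 12 lower, with the fewest without day 1 replicate 2, on TPM 10 rose and 7 fell, and in the 4-library fit 1 rose and 0 fell. Slc16a3, the lactate exporter of glycolytic cells, was at 1.82, 1.87 and 3.25 FPKM in sham and 12.52, 16.9 and 20.3 FPKM at day 1 (log2 difference 2.41 ± 0.26, adjusted p = 0.00177) and was called in every alternative. Slc2a4, the insulin-regulated glucose transporter of muscle, was at 95.9, 109 and 88.6 FPKM in sham and 51.5, 45.5 and 51.9 FPKM at day 1 (log2 difference -0.96 ± 0.23, adjusted p = 0.0174), a call lost without sham replicate 2 or day 1 replicate 2. Hk3, a hexokinase of myeloid cells, was at 1.09, 0.499 and 1.197 FPKM in sham and 2.42, 5.69 and 3.02 FPKM at day 1 (log2 difference 1.25 ± 0.26, adjusted p = 0.011). Ketone and branched-chain amino acid genes were 1 higher and 11 lower of 26, and 2 to 12 were lower without 1 library, again fewest without day 1 replicate 2, with 1 higher and 0 lower in the 4-library fit. The member that rose was Bcat1, the cytosolic transaminase of macrophages and growing cells, at 1.67, 1.47 and 1.75 FPKM in sham and 6.43, 6.98 and 10.1 FPKM at day 1 (log2 difference 1.73 ± 0.17, adjusted p = 0.00124). The energy shuttle of creatine and adenylate was 2 higher and 8 lower of 18. It had no call in the 4-library fit, and 0 lower without day 1 replicate 2, 1 without sham replicate 2 and 4 or 5 without sham replicates 1 or 3 or day 1 replicate 1. Mb, myoglobin, was at 6496, 8168 and 6006 FPKM in sham and 2896, 3162 and 4859.5 FPKM at day 1 (log2 difference -0.95 ± 0.26, adjusted p = 0.028), a call lost without any 1 sham library or day 1 replicate 1 or 2.

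Iron and heme genes rose in 9 of 26 cases and fell in 1 (median 0.50), and 1 rose in the 4-library fit. Mt2, a metallothionein, was at 108, 118 and 204 FPKM in sham and 418, 477 and 652 FPKM at day 1 (log2 difference 1.87 ± 0.31, adjusted p = 0.00537), and Ftl1, the ferritin light chain, at 531, 388 and 531 FPKM in sham and 745, 1103 and 1099.9 FPKM at day 1 (log2 difference 1.01 ± 0.20, adjusted p = 0.00908). The ferritin heavy chain Fth1 was not called, at 1736, 1330.0 and 1444 FPKM in sham and 1359, 1513 and 1645 FPKM at day 1. Tfrc, the receptor for iron uptake, was the 1 that fell, from 21.1, 59.7 and 41.0 FPKM to 10.7, 11.8 and 17 FPKM (log2 difference -1.46 ± 0.38, adjusted p = 0.0232), with a call lost without sham replicate 2 or 3 or day 1 replicate 1 or 2. Of 29 genes of oxidative stress defence and oxidant production 9 rose and 6 fell. Leaving out 1 library gave 3 to 8 higher and 2 to 4 lower, with the fewest in both directions without day 1 replicate 2, and the 4-library fit called none. The rises included Ncf1, a subunit of the phagocyte oxidase, at 6.43, 4.41 and 9.57 FPKM in sham and 17.2, 22.3 and 18.3 FPKM at day 1 (log2 difference 1.42 ± 0.22, adjusted p = 0.00433). The falls included Nqo1, a quinone reductase, at 35.3, 39.5 and 33.1 FPKM in sham and 8.03, 11.5 and 19.5 FPKM at day 1 (log2 difference -1.48 ± 0.27, adjusted p = 0.00723), and Gpx4, which protects membranes from lipid peroxides, at 618, 645 and 572 FPKM in sham and 274, 285 and 419 FPKM at day 1 (log2 difference -0.93 ± 0.16, adjusted p = 0.00671).

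Hypoxia-inducible genes were called lower more often than higher, 7 against 1 of 22, with a median of -0.23 that turned to 0.03 on TPM, where 4 were lower and 3 higher. Ddit4, which restrains mTOR, was at 34.7, 48.1 and 31.0 FPKM in sham and 12.0, 14.2 and 13.8 FPKM at day 1 (log2 difference -1.42 ± 0.21, adjusted p = 0.00386). Pdk1, which blocks pyruvate entry into mitochondria, was at 36.4, 53.7 and 38.0 FPKM in sham and 20.1, 20.4 and 29.0 FPKM at day 1 (log2 difference -0.85 ± 0.20, adjusted p = 0.0153), and Vegfa is given above. Sham replicate 2 was the highest library for all 3 genes, and the call of Pdk1 was lost without it or without day 1 replicate 2. Without sham replicate 2 or day 1 replicate 2 the number lower was 2, without day 1 replicate 1 it was 3 without sham replicate 1 it was 4 and in the 4-library fit it was 1, with 0 higher.

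Immediate early genes were 4 higher and 5 lower of 24, next to 13.4% and 14.7% of all genes. Their median was -0.01, and 0.26 on TPM. The falls numbered 0 without sham replicate 2 or day 1 replicate 2 and 1 without sham replicate 1 or day 1 replicate 1, and the rises 1 without sham replicate 3 and 2 without sham replicate 2 or day 1 replicates 2 or 3. The 4-library fit called none. Junb was at 18.3, 16.2 and 16.4 FPKM in sham and 26.6, 33.2 and 47.2 FPKM at day 1 (log2 difference 0.99 ± 0.22, adjusted p = 0.0133), and Dusp1, a phosphatase that ends MAP kinase signals, at 61.4, 61.7 and 41.8 FPKM in sham and 32.7, 29.6 and 34.0 FPKM at day 1 (log2 difference -0.74 ± 0.17, adjusted p = 0.0148), a call lost on TPM and without sham replicate 2 or day 1 replicate 2. Of 31 cell death regulators 13 rose and 2 fell. Ripk3, the kinase of necroptosis, was at 1.37, 1.26 and 2.32 FPKM in sham and 4.58, 5.92 and 6.44 FPKM at day 1 (log2 difference 1.34 ± 0.17, adjusted p = 0.00258), and Casp8, the initiator caspase that restrains it, at 9.16, 9.31 and 9.81 FPKM in sham and 14.2, 21.8 and 21.0 FPKM at day 1 (log2 difference 0.92 ± 0.14, adjusted p = 0.00438). The groups of both were separate, and 2 members rose in the 4-library fit. The count of 13 was 7 without sham replicate 1, 8 without sham replicate 3 and 5 without sham replicate 2 or day 1 replicate 2. Of 23 cytosolic and mitochondrial heat shock proteins 6 fell and none rose, in contrast to the ER chaperones. Hspb8, a small heat shock protein of muscle, was at 229, 314 and 238 FPKM in sham and 92.8, 83.6 and 133 FPKM at day 1 (log2 difference -1.34 ± 0.20, adjusted p = 0.00381), and Hspa8, the constitutive cytosolic chaperone, was not called, at 566, 658 and 423 FPKM in sham and 557, 467 and 614 FPKM at day 1. The heat shock count was 2 without sham replicate 2, sham replicate 3 or day 1 replicates 1 or 2 and 10 without day 1 replicate 3, and it was 1 in the 4-library fit. It also depended on the scaling. On TPM 2 were lower with a median of -0.11, next to -0.36 on FPKM, and with quantile normalization 3 were lower and 1 higher.

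Clock genes fell in 8 of 19 cases and rose in 2 (median -0.35, and -0.10 on TPM). These genes cycle over the day in heart, with Bmal1 and Clock driving Dbp and the repressors Nr1d1 and Nr1d2. Dbp was at 17.8, 6.38 and 10.9 FPKM in sham and 1.84, 2.29 and 1.55 FPKM at day 1 and 26.2, 32.4 and 31.6 FPKM at day 7 (log2 difference -2.03 ± 0.29, adjusted p = 0.0035 for day 1 against sham). Nr1d1 was at 36.6, 23.6 and 29.9 FPKM in sham and 7.88, 5.98 and 8.07 FPKM at day 1 and 24.9, 24.7 and 25.1 FPKM at day 7 (log2 difference -1.89 ± 0.16, adjusted p = 0.000902). Nr1d2 was at 36.8, 24.2 and 28.7 FPKM in sham and 12.96, 11.5 and 11.3 FPKM at day 1 and 33.3, 33.8 and 36.4 FPKM at day 7 (log2 difference -1.24 ± 0.14, adjusted p = 0.00207). In all 3 genes the day 1 libraries lay below every sham and every day 7 library, as the plot of clock, channel and metabolic genes shows. The count of clock genes lower was 4 without sham replicate 1, 5 without sham replicate 2 or day 1 replicate 3, 3 on TPM and 3 in the 4-library fit, where none rose. Cry1 and Nfil3 were the members that rose, with log2 differences of 0.55 and 0.80. Without sham replicate 1 or 3 or any 1 day 1 library 0 members rose. The labels do not give the hour of collection. Exons of Nr1d1 overlap Thra and those of Dbp overlap Sphk2, each on the opposite strand.

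**Figure D5:**
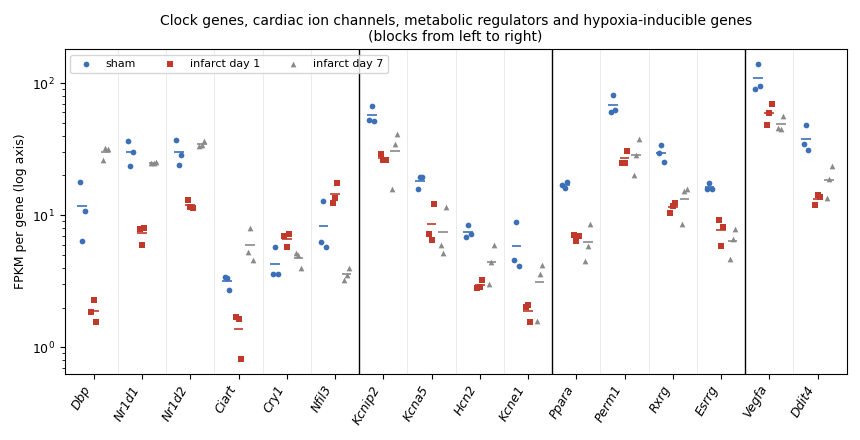
FPKM (log axis) of clock genes, ion channels, metabolic regulators and hypoxia-inducible genes, in blocks from left to right, with 1 point per library and bars at group means. Dbp, Nr1d1 and Nr1d2 are lower at day 1 than at day 7 and in sham, while Kcnip2, Hcn2 and Ppara are lower than sham at both times.

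Several smaller lists gave single results. Cholesterol genes rose in 9 of 27 cases with none lower, and Ch25h, which makes the signalling oxysterol of activated macrophages, was at 1.08, 1.30 and 1.85 FPKM in sham and 4.25, 6.23 and 10.49 FPKM at day 1 (log2 difference 1.67 ± 0.31, adjusted p = 0.0076). Without any 1 sham library 4 cholesterol genes rose, without day 1 replicate 2 it was 2 and in the 4-library fit 0. Aldh1a2, which makes retinoic acid in epicardium, was the 1 mesothelial marker of 11 to rise, at 4.82, 1.13 and 5.96 FPKM in sham and 19.3, 15.8 and 35.7 FPKM at day 1 (log2 difference 2.39 ± 0.44, adjusted p = 0.00733), and it was called in every alternative, while the epicardial factor Wt1 was not called, at 5.37, 4.42 and 3.0 FPKM in sham and 4.85, 5.14 and 5.28 FPKM at day 1. Platelet and red cell genes gave 4 rises of 10, with 1 left without sham replicate 2 or 3 or day 1 replicate 2. The number was 7 when day 1 replicate 1 was left out and 2 when day 1 replicate 3 was, and none was called in the 4-library fit. Pf4, a platelet chemokine that macrophages also express, was at 23.8, 15.6 and 25.4 FPKM in sham and 61.3, 77.1 and 146 FPKM at day 1 (log2 difference 2.01 ± 0.33, adjusted p = 0.00533). The globin gene Hba-a1, which has a near-identical copy, was at 143, 52.6 and 58.0 FPKM in sham and 123, 406 and 439 FPKM at day 1 (log2 difference 1.87 ± 0.58, adjusted p = 0.0422), so that sham replicate 1 was above day 1 replicate 1 and its call was lost without sham replicate 2 or 3 or day 1 replicate 2 or 3. Ribosome biogenesis genes were 2 higher and 2 lower of 36, next to 13.4% and 14.7% of all genes. On TPM they were 11 higher and 0 lower, where 18.1% of all genes rose. Leaving out 1 library gave 0 to 2 higher, with 0 without sham replicate 2 or 3, and 0 to 4 lower, with 4 without day 1 replicate 3, and the 4-library fit called none.

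The noncoding RNA gene that the series concerns, AI662270, was at 3.49, 2.02 and 4.11 FPKM in sham and 9.30, 13.8 and 12.1 FPKM at day 1 and 3.95, 7.39 and 3.66 FPKM at day 7 (log2 difference 1.62 ± 0.27, adjusted p = 0.00546 for day 1 against sham). All 3 day 1 libraries were above the 3 sham libraries, and the groups were separate, in either direction, in 6430 of the 13514 genes tested. Among long intergenic noncoding RNA genes as a class, 16 of 329 tested rose and 42 fell, or 4.86% and 12.8%, next to 14% and 15.1% of the 12444 protein-coding genes.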

How the data were processed

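The values are FPKM per transcript that the authors made and deposited for 9 libraries. RNA came from TRIzol extracts, per the labels' protocols, and the submitters' processing notes name FastQC 0.11.9, HISAT2 2.1.0, HTSeq 0.11.2 and build GRCm39. The annotation release and strand setting were not given in the sources used here. FPKM was summed over the 55361 transcript entries to 25468 genes. Reads behind a value were not recoverable, so depth is unknown. limma 3.58.1 (R 4.3.3) was fitted with a variance trend to log2(FPKM + 1) of 9 libraries, with 1 mean per group, two-sided tests and adjustment over 13514 genes. The procedure was tested on simulated data. Exact permutation over 3 and 3 libraries has a smallest two-sided p of 0.1, so no such test was run. The members and the 64 gene lists were chosen with earlier results of these data known. Genes named are the 15 largest rises and falls (mean 5 FPKM or more in the higher group, groups not overlapping), up to 4 called members and the 3 highest-level members of each list, and the genes in the series' title and text. Jak2, Cry1, Nfil3, Cenpa, Gbp2, Gbp8, Gm4951 and Ifi47 were named after their values were seen. Gene symbols follow GENCODE M21 by gene ID, and 111 of the 351 named genes overlap an exon of another gene, whose reads may not be told apart. The labels do not say whether replicate numbers pair the libraries, and the main fit did not pair them.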

Additional observations from a re-analysis of the deposited data

How the results depend on the processing

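Alternatives were a pseudocount of 0.1, other filters, quantile, median-ratio and TPM scaling, 6 libraries alone, array weights, no variance trend, the most expressed transcript, and leaving out libraries. Genes higher (1817) became 1199 with a minimum mean of 5 FPKM and 3583 on TPM without mitochondrially encoded genes. Genes lower (1993) became 601 on TPM, 886 on TPM without mitochondrially encoded genes and 3027 with array weights. Without both libraries with airway markers 256 were higher and 146 lower, from fewer samples. Leaving out each library in turn gave 968 to 1775 higher and 790 to 2178 lower. The other alternatives kept both counts within 1.5 times. The replicate block gave 1448 higher and 1590 lower. Same-numbered sham and day 1 libraries correlated in their deviations at 0.27, -0.37 and 0.23, and differently numbered ones at -0.53 to 0.40. Of 254 named genes called, 75 kept the call in all alternatives and 174 lost it without both airway-marker libraries, 79 of them only there. The block lost 31 and gained 3. Sign changes were counted only where a named gene was called in the main fit or in the alternative, and 2 genes had one. They were Bcl2l1, to 0.11 with the most expressed transcript, and Hsp90ab1, to 0.37 with quantile normalization, and the cause was not tested. Named genes called in neither also changed sign, such as Atf4 (-0.17 to 0.29 over the alternatives).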
